A study of Mus musculus with 6 samples.

Results

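The TAM family of receptor tyrosine kinases consists of *Tyro3*, *Axl* and *Mertk*, and its ligands are *Gas6* and *Pros1*, which encodes protein S. These 5 genes were selected by symbol from the 23282 gene rows of the count files, with the difference between *Txnip-/-* and WT libraries already known, and all 5 had a row and passed the filter on low counts. TAM ligands bridge phosphatidylserine on the surface of dying cells or membranes to a TAM receptor on another cell, which drives engulfment and dampens Toll-like receptor and interferon signalling. Gas6 binds each TAM receptor and has its highest affinity for Axl, whereas protein S activates Tyro3 and Mertk and not Axl. In the liver, Mertk is known from Kupffer cells, the resident macrophages, Axl from macrophages, endothelium and stellate cells, and protein S from hepatocytes and endothelium, where it also serves as an anticoagulant cofactor of activated protein C.

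LSECs form the fenestrated wall of the liver sinusoids. They were isolated by liver perfusion, a density gradient and magnetic beads against CD146. The mice were *Txnip-/-* mice, which lack *Txnip* in the whole body and are on a C57BL/6J background, and C57BL/6J control mice (WT). The study cultured LSECs selected in this way in endothelial growth medium. Whether the sequenced cells were cultured is not stated. *Txnip* encodes thioredoxin-interacting protein, an alpha-arrestin that binds thioredoxin and restrains glucose uptake, and the comparison asks how its loss changes LSEC RNA. RNA was measured by QuantSeq, a 3′ mRNA-seq method that gives reads from the 3′ end of each transcript, in 3 libraries per genotype. The age and sex of the mice are not given in the sources used here, nor whether the libraries came from separate mice, so p-values measure only the spread between these libraries, which may be technical.

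The libraries held 9147764, 10193952 and 9632360 counts for *Txnip-/-* and 9745357, 9951078 and 9699159 counts for WT. Levels are given in CPM, a gene's counts relative to all counts of its library, after scaling by the trimmed mean of M values (TMM), and a floor of 3 counts corresponded to 0.286 to 0.335 CPM, a limit that covers counting error only. The WT libraries were not alike. In a chi-square comparison of gene counts, divided by its degrees of freedom, replicates 1 and 2 of WT differed from each other by 3.93 but from WT replicate 3 by 37.0 and 40.3. WT replicate 3 differed from the *Txnip-/-* libraries by 13.3 to 17.1. The row *Rn45s*, a precursor of ribosomal RNA, took 10.03% of the counts of WT replicate 1, 9.68% of replicate 2 and 17.9% of replicate 3, beside 17.0%, 18.6% and 16.9% in the *Txnip-/-* libraries. Values without WT replicate 3, and against WT replicate 3 alone, are therefore given for the TAM genes.

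*Txnip* itself separated the genotypes in accordance with their labels. Its counts were 269, 216 and 191 for *Txnip-/-* and 1901, 2019 and 1994 for WT. Its level was 24.2 ± 5.15 CPM against 196 ± 13.3 CPM (mean ± SD, n = 3 each), with a log2 fold change of -3.02 ± 0.14 (SE) and an adjusted p of 6.94e-10 in edgeR's quasi-likelihood test with Benjamini-Hochberg adjustment. Which part of the gene is deleted, and whether the counted 3′ end lies in it, is not given in the sources used here.

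Markers of endothelium were abundant in every library. The summed level of 7 endothelial markers was 2865, 3108 and 2771 CPM in *Txnip-/-* libraries and 3050, 2986 and 3513 CPM in WT libraries, with *Cdh5*, the endothelial cadherin, as the most abundant of them and *Mcam*, which encodes the CD146 used for sorting, at 41.5 ± 4.0 against 55.1 ± 11.8 CPM. The summed level of 8 LSEC markers was 2091, 2301 and 2662 CPM in *Txnip-/-* libraries and 4326, 4607 and 2281 CPM in WT libraries, so WT replicate 3 lay within the range of the *Txnip-/-* libraries. Most of this sum was *Lyve1*, a hyaluronan receptor, at 1698 ± 255 against 2927 ± 1228 CPM. None of the LSEC or endothelial markers was at 0 in any group. The edgeR call was passed by 0 of them, beside 1.44% of all genes tested. *Stab2* had an edgeR adjusted p of 0.045 but lay under the 1.3-fold size that the call requires. At an unadjusted p under 0.05 in edgeR, 6 of 8 LSEC and 3 of 7 endothelial markers were lower, beside 701 of all 11583 genes tested. *Stab1*, an LSEC differentiation marker of the study, was not on this list and was called lower (log2 fold change -0.46, edgeR adjusted p 0.0098). *Stab2*, *Lyve1*, *Fcgr2b* and *Clec1b* also belong to genes that the study displayed from these samples, so their direction is not independent evidence.

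*Axl* differed most between the genotypes, with about double the RNA level in *Txnip-/-* LSECs. Its counts were 431, 486 and 356 for *Txnip-/-* and 239, 243 and 178 for WT. These correspond to 48.1, 49.5 and 38.1 CPM against 23.3, 23.1 and 18.8 CPM. The genotypes did not overlap, and the lowest library of each genotype was its replicate 3. The mean was 45.2 ± 6.26 against 21.7 ± 2.53 CPM (SD, n = 3 each), a ratio of 2.08, and the log2 fold change was 1.06 ± 0.16 (SE). The study displayed *Axl* among inflammation genes from these same libraries, and the TAM genes were chosen on this contrast, so these values are a description without a test. The log2 fold change of *Axl* was 0.96 without WT replicate 3 and 1.27 against WT replicate 3 alone, and leaving out any single library gave values between 0.96 and 1.16.

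*Mertk*, the TAM receptor known best for clearance of apoptotic cells by macrophages, was measured at a lower level. It had 100, 134 and 126 counts in *Txnip-/-* libraries and 111, 85 and 118 counts in WT libraries, which are 11.2, 13.7 and 13.5 CPM against 10.8, 8.10 and 12.5 CPM. The genotypes overlapped, because WT replicate 3 exceeded *Txnip-/-* replicate 1. The log2 fold change was 0.29 ± 0.25 (SE). It was 0.43 without WT replicate 3, 0.13 without WT replicate 2 and 0.03 against WT replicate 3 alone.

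*Tyro3*, known mainly from the nervous system, was the lowest TAM receptor and rested on few reads. It had 39, 43 and 33 counts in *Txnip-/-* libraries and 48, 38 and 18 counts in WT libraries. The levels of 4.35, 4.38 and 3.53 CPM against 4.67, 3.62 and 1.90 CPM overlapped, with the highest and the lowest library both WT. The log2 fold change of 0.26 ± 0.48 (SE) was smaller than its error. It moved from -0.02 without WT replicate 3 to 1.10 against that library alone, and it was 0.56 without WT replicate 1.

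*Gas6*, a vitamin K-dependent protein that signals through all TAM receptors, had nearly the same mean in both genotypes. Its counts were 631, 722 and 782 in *Txnip-/-* libraries and 763, 715 and 793 in WT libraries, or 70.5, 73.6 and 83.6 CPM against 74.3, 68.1 and 83.9 CPM. The log2 fold change was 0.01 ± 0.12 (SE), and the spread within each genotype was larger than the difference between them. It was 0.09 without WT replicate 3 and -0.14 against WT replicate 3 alone.

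*Pros1* was the most abundant TAM gene, at rank 133 by mean level among the 11583 genes tested. Its counts were 6799, 6138 and 6974 for *Txnip-/-* and 8547, 8687 and 7943 for WT. The WT libraries were tightly grouped at 832, 828 and 840 CPM, and the *Txnip-/-* libraries were at 759, 626 and 746 CPM. All *Txnip-/-* libraries lay below all WT libraries, with *Txnip-/-* replicate 2 lowest. The log2 fold change was -0.23 ± 0.08 (SE), a size below the threshold of 1.3-fold, and it was -0.15 without *Txnip-/-* replicate 2. It was -0.23 without WT replicate 3 and -0.24 against WT replicate 3 alone.

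**Figure D1:**
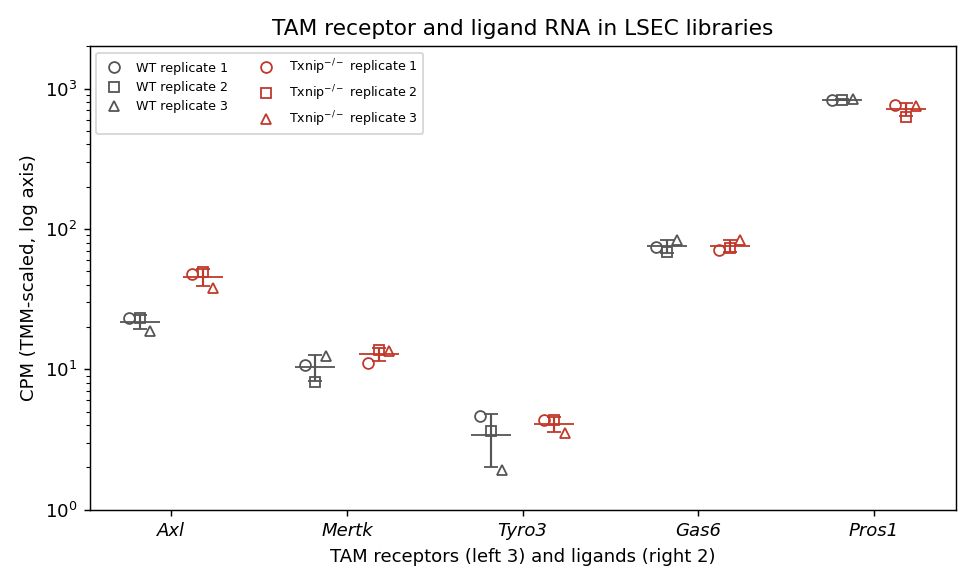
Levels of the TAM receptors and ligands in CPM (TMM-scaled, log axis) in LSEC libraries of WT (grey) and *Txnip-/-* (red) mice. Symbols are libraries, horizontal bars are means and error bars are SD (n = 3 each). *Axl* lies between 38.1 and 49.5 CPM in *Txnip-/-* libraries and between 18.8 and 23.3 CPM in WT libraries, while *Mertk*, *Tyro3* and *Gas6* overlap.

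A gene was called when its edgeR adjusted p was under 0.05 and its fold change above 1.3 in either direction. By this rule 1 of the 5 TAM genes was called, *Axl*, which was higher, and 0 were called lower. With 1.3 read on the log2 scale, 0 of the 5 were called. Across all genes tested, 167 of 11583 (1.44%) were called, 59 higher (0.509%) and 108 lower (0.932%). With total counts in place of TMM scaling, 35 genes were called higher and 145 lower. The genotypes did not overlap for 2 of the 5 TAM genes, *Axl* and *Pros1*, and for 17.4% of all genes tested. Because the TAM genes were chosen on this contrast, nothing is read from these shares.

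Within a library, the TAM genes kept a fixed order of level, and the ligands exceeded the receptors. QuantSeq counts do not grow with transcript length, so CPM can be set side by side between genes, although the efficiency of priming at each 3′ end was not measured. *Pros1* was above *Gas6*, *Gas6* above *Axl*, *Axl* above *Mertk* and *Mertk* above *Tyro3* in 6 of 6 libraries. On the log2 CPM scale, *Pros1* exceeded *Gas6* 10.2-fold, *Gas6* exceeded *Axl* 2.41-fold, *Axl* exceeded *Mertk* 2.70-fold and *Mertk* exceeded *Tyro3* 3.06-fold on average. Each of the 10 pairs had an exact two-sided sign-flip permutation p of 0.03125 over 6 libraries, the smallest that 6 libraries can give, and an adjusted value of 0.03125 over the 10 pairs. The place of *Axl* between its neighbours differed by genotype. In *Txnip-/-* libraries *Axl*, at 48.1, 49.5 and 38.1 CPM, was by ratio closer to *Gas6*, at 70.5, 73.6 and 83.6 CPM, than to *Mertk*, which it exceeded 4.31-, 3.63- and 2.83-fold. In WT libraries it was closer to *Mertk*, which it exceeded 2.15-, 2.86- and 1.51-fold, than to *Gas6*, at 74.3, 68.1 and 83.9 CPM beside 23.3, 23.1 and 18.8 CPM for *Axl*.

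*Axl* made up most of the TAM receptor counts in both genotypes. Its share of the receptor counts was 75.6% (95% Clopper-Pearson interval 71.9 to 79.1), 73.3% (69.8 to 76.6) and 69.1% (64.9 to 73.1) in *Txnip-/-* libraries. In WT libraries it was 60.1% (55.1 to 64.9), 66.4% (61.3 to 71.2) and 56.7% (51.0 to 62.2). These intervals cover counting error only. The mean share was 72.7% ± 3.28 against 61.0% ± 4.93 (SD, n = 3 each), and the genotypes did not overlap. Because *Axl* carries most of the receptor counts, the receptor shares largely restate the *Axl* difference, on which the TAM genes were chosen. *Mertk* gave 20.7% ± 3.50 of the receptor counts in *Txnip-/-* and 29.6% ± 7.33 in WT libraries, and *Tyro3* gave 6.58% ± 0.23 and 9.39% ± 3.28. Among ligand counts, *Gas6* contributed 9.70% ± 1.07 in *Txnip-/-* and 8.29% ± 0.74 in WT libraries, the remainder being *Pros1*.

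Summed over the family, receptor RNA was higher and ligand RNA lower in *Txnip-/-* libraries. The 3 receptors together reached 63.6, 67.6 and 55.1 CPM in *Txnip-/-* libraries and 38.7, 34.9 and 33.2 CPM in WT libraries. The 2 ligands together reached 830, 699 and 829 CPM in *Txnip-/-* libraries and 906, 896 and 924 CPM in WT libraries. The ratio of ligand to receptor CPM was thus 12.8 ± 2.36 in *Txnip-/-* and 25.6 ± 2.22 in WT libraries (SD, n = 3 each), without overlap. These sums follow from *Axl* and *Pros1*, which carry most of each, and they describe RNA, not protein at the cell surface. The ratio of *Pros1* to *Gas6* was 9.40 ± 1.21 against 11.1 ± 1.07 and overlapped between genotypes, as did the ratio of *Axl* to *Mertk*, at 3.59 ± 0.74 against 2.17 ± 0.68.

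Other genes followed each TAM gene closely over the 6 libraries. Among 7776 named genes with a mean of at least 10 CPM, the log2 levels most like *Axl* were those of *Cpsf3*, a nuclease of mRNA 3′ end processing (Pearson r = 0.998), *Bin1*, a membrane-bending protein (r = 0.989), and *Rbm17*, a splicing factor (r = 0.988). Their own log2 fold changes were small beside that of *Axl*, at 0.19, 0.42 and 0.20. For *Mertk* the closest genes were *Klf9*, *Pithd1* and *Abcf2*, and for *Gas6* they were *Galnt10*, *Vps52* and *Zfp771*. For *Pros1* they were *Pcmtd1*, *Cttnbp2nl* and *Uggt1*. The closest to *Tyro3*, among 7777 such genes, were *Zfp948*, *Asah1* and *Rbsn*. With 6 libraries a high r is common, since 172 genes exceeded 0.9 with *Axl*, 64 with *Mertk*, 93 with *Tyro3*, 39 with *Gas6* and 107 with *Pros1*, and the 6 points are the same libraries for every gene, in which genotype and the marker levels of other cells differ together.

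Markers of other liver cells are given beside the TAM genes. Kupffer cell markers fell. Of 13 listed, 12 were tested, 11 were called lower and 0 higher, and 12 had non-overlapping genotypes, beside 0.932% of all genes tested called lower and 17.4% not overlapping. Their summed level was 315, 306 and 340 CPM in *Txnip-/-* libraries and 777, 742 and 762 CPM in WT libraries, with *Marco*, a scavenger receptor, the most abundant at 83.2 ± 7.12 against 175 ± 3.86 CPM. No marker of this list was at 0 in all libraries, though *Timd4*, itself a phosphatidylserine receptor, was under the filter at 0.55 and 0.56 CPM. The other genes called were *Vsig4*, *Cd5l*, *Cd163*, *Csf1r*, *Cd68*, *Lyz2*, *C1qa*, *C1qb*, *C1qc* and *Adgre1*, and the log2 fold changes of the 12 ranged from -2.07 to -0.75. The call of *Adgre1*, which encodes F4/80, had an edgeR adjusted p of 0.0495 and was lost without any one of *Txnip-/-* replicates 1 and 2 and WT replicates 1 and 2 (adjusted p 0.20, 0.18, 0.21 and 0.15). In bulk RNA, fewer cells of a type and less RNA per cell cannot be told apart. The mean level of *Mertk*, a gene of these macrophages, was 12.8 ± 1.39 CPM in *Txnip-/-* and 10.5 ± 2.21 CPM in WT libraries while these markers differed in the other direction, and their part in the values of *Mertk* and *Axl* was not tested.

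Of 9 stellate cell markers tested, 8 had a higher mean in *Txnip-/-* libraries and 1 a lower mean. Of 10 listed, 9 were tested and 2 were called higher, *Dcn*, which encodes the matrix proteoglycan decorin, and *Acta2*, which encodes smooth muscle actin, and 0 were called lower. The log2 fold changes of the 9 ranged from -0.30 to 1.80, and 4 had non-overlapping genotypes, beside 0.509% of all genes tested called higher and 17.4% not overlapping. *Dcn* was at 30.6 ± 2.66 against 15.4 ± 1.55 CPM, with a log2 fold change of 0.99 ± 0.18 (SE) and an edgeR adjusted p of 0.0050. *Acta2* was at 14.5 ± 1.87 against 5.22 ± 0.91 CPM, with a log2 fold change of 1.47 ± 0.27 (SE) and an edgeR adjusted p of 0.0068, or 0.055 without WT replicate 1. The summed stellate marker level was 67.4, 83.3 and 87.3 CPM in *Txnip-/-* libraries and 52.2, 48.6 and 46.0 CPM in WT libraries, with *Dcn* the most abundant, no marker at 0 in all libraries and *Lrat*, the vitamin A-storing enzyme of quiescent stellate cells, under the filter at 1.41 and 0.29 CPM. Among the markers not called, *Ecm1* was lower on average, at 15.6 ± 4.86 against 19.2 ± 3.48 CPM. *Des* was at 2.87 ± 0.45 against 2.80 ± 0.85 CPM, and *Hand2* at 7.02 ± 0.87 against 2.01 ± 0.87 CPM. The higher sum thus rests mostly on *Dcn*, *Acta2* and *Hand2*. The part of stellate cells in the *Axl* level was not tested.

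The remaining lists were low. Hepatocyte markers summed to 54.5, 51.4 and 60.4 CPM in *Txnip-/-* and 49.2, 46.3 and 48.2 CPM in WT libraries, with *Alb* the most abundant, none at 0 in all libraries and 0 of 5 tested called. Dendritic cell markers summed to 23.8, 21.0 and 21.5 CPM against 21.2, 28.6 and 24.0 CPM, with *Clec9a* the most abundant, *Cd209a* and *Siglech* at 0 in all libraries and 0 of 2 tested called. For these lists, 1 hepatocyte marker was higher and 1 dendritic cell marker lower at an unadjusted p under 0.05 in edgeR. Over all genes tested, 1.44% were called and 11.5% had such a p. Cholangiocyte markers summed to between 1.36 and 5.10 CPM, led by *Sox9*, which alone was tested and was not called. No lymphocyte or neutrophil marker passed the filter. Their sums did not exceed 0.64 and 1.53 CPM, led by *Cd79a* and *S100a8*, and *Cd3e*, *Ms4a1*, *Nkg7*, *Gzma*, *Retnlg* and *Camp* were at 0 in all libraries.

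**Figure D2:**
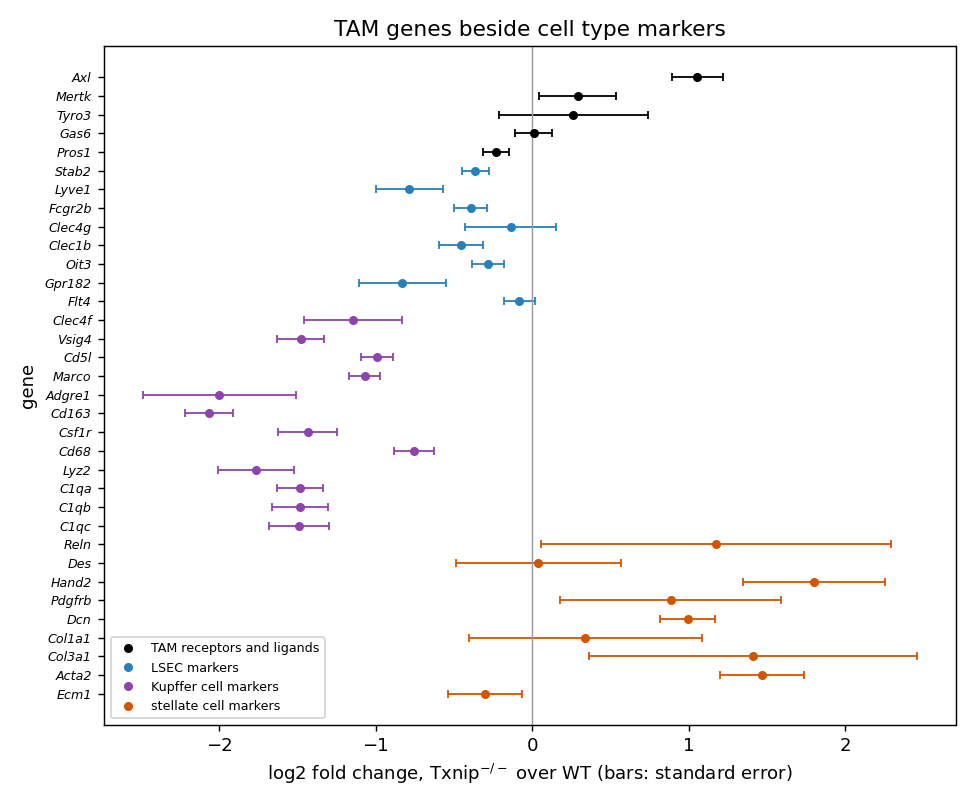
Log2 fold change of *Txnip-/-* over WT (points, with SE as bars, n = 3 libraries each) for the TAM genes and for the tested markers of LSECs, Kupffer cells and stellate cells. *Axl* lies at 1.06, and all 12 Kupffer cell markers lie below 0. The stellate cell markers range from -0.30 to 1.80, with *Dcn* at 0.99 and *Acta2* at 1.47.

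Genes that act with the TAM receptors, or beside them in clearance and as other receptor tyrosine kinases, were described by 11 lists of 128 genes, of which 106 were tested. Of these, 0 were called higher and 9 lower (8.49%, beside 1.44% of all genes tested), and at an unadjusted p under 0.05 in edgeR 6 were higher and 20 lower (24.5%, beside 11.5% of all genes tested). The median log2 fold change was -0.07 over the lists and -2.75e-05 over all genes tested. The lists were chosen with earlier results of these data known, so nothing is read from these shares. The same holds for the shares of each list below. The genes called were *Lgals3*, *Stab1*, *Lrp1*, *Cd300lf*, *Timp3*, *Vav1*, *Mylip*, *Ccn2* and *Csf1r*. DESeq2 called 10, the same 9 and *Cd36*, beside 85 higher and 129 lower among all 16763 genes fitted. *Csf1r* is also among the Kupffer cell markers, and macrophages are known to express *Lgals3*, *Cd300lf*, *Lrp1* and *Vav1* as well. The part of the lower Kupffer cell markers in these genes was not tested.

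Ligand maturation and partners of protein S gave no call. Over all genes tested, edgeR called 1.44%, and 11.5% had an unadjusted p under 0.05. TAM ligands need vitamin K-dependent gamma-carboxylation to bind phosphatidylserine, and 0 of 4 tested genes of that pathway were called by edgeR or DESeq2, with 0 at an unadjusted p under 0.05. *Ggcx*, the carboxylase, was at 17.6 ± 2.93 against 15.5 ± 1.21 CPM, and *Vkorc1*, the vitamin K epoxide reductase and the most abundant of the list, at 38.1 ± 4.19 against 43.6 ± 4.81 CPM. Of the partners of protein S in coagulation, 0 of 3 tested were called by edgeR or DESeq2 and 1 had an unadjusted p under 0.05. This was *Procr*, the endothelial protein C receptor, at 197 ± 14.8 against 161 ± 14.2 CPM (log2 fold change 0.29 ± 0.10 SE, edgeR adjusted p 0.21). *Thbd*, which encodes thrombomodulin and was the most abundant of the list, was at 215 ± 29.4 against 216 ± 14.5 CPM.

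Among other proteins that bind dying cells or bridge them to phagocytes, 1 of 3 tested was called, and it was lower. The share called lower over all genes tested was 0.932%. *Lgals3*, which encodes galectin-3, a lectin that can act as a ligand of Mertk, had 707, 852 and 809 counts in *Txnip-/-* libraries and 1453, 1760 and 1693 counts in WT libraries. Its level fell to 84.1 ± 4.46 from 163 ± 19.3 CPM (log2 fold change -0.95 ± 0.11 SE, edgeR adjusted p 5.08e-05). *Anxa5*, the phosphatidylserine-binding annexin and the most abundant of the list, was at 432 ± 6.29 against 426 ± 6.16 CPM. *Mfge8*, the bridge to alpha-v integrins, was named for that role and not by its values, at 402 ± 21.6 against 426 ± 68.9 CPM.

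Of 14 tested receptors that clear dying cells by other routes, 3 were called lower and 0 higher. An unadjusted p under 0.05 was found for 9 (64.3%), 8 of them lower. Over all genes tested, 0.932% were called lower, 0.509% were called higher and 11.5% had an unadjusted p under 0.05. *Lrp1*, a large endocytic receptor, was at 7.98 ± 2.34 against 22.7 ± 4.18 CPM (log2 fold change -1.51 ± 0.25 SE, edgeR adjusted p 0.0031). *Cd300lf*, a myeloid lipid receptor, was at 3.25 ± 1.04 against 12.1 ± 1.02 CPM (log2 fold change -1.89 ± 0.32 SE, edgeR adjusted p 0.0035). *Stab1*, the scavenger receptor stabilin-1 of sinusoidal endothelium and macrophages, was at 254 ± 16.1 against 349 ± 24.2 CPM (log2 fold change -0.46 ± 0.09 SE, edgeR adjusted p 0.0098). The *Stab1* call was lost without *Txnip-/-* replicate 2 or 3 (edgeR adjusted p 0.084 and 0.074). It was also lost with a block on replicate number (edgeR adjusted p 0.051). *Nt5dc2*, on the other strand, has an exon over the 3′ end of *Stab1* and had a like change, 228 ± 12.3 against 310 ± 26.8 CPM, and because the use of strand in counting is not given, reads of the pair cannot be told apart. Below the call, *Stab2* (edgeR adjusted p 0.045, under 1.3-fold) and *Cd36* (edgeR adjusted p 0.060) were named after their values were seen. *Stab1* and *Stab2* were also displayed by the study from these samples. *Itgb3*, the most abundant of the list, was at 438 ± 10.9 against 506 ± 23.4 CPM and was not called.

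Phosphatidylserine exposure and receptor shedding flank the TAM receptors on the side of the dying cell and of the receptor. For exposure, 0 of 9 tested genes were called by edgeR or DESeq2. An unadjusted p under 0.05 was found for 1 (11.1%), beside 11.5% of all genes tested in edgeR. This was the flippase *Atp8a1* (8.84 ± 2.01 against 14.2 ± 2.45 CPM, edgeR adjusted p 0.28). *Tmem30a*, the flippase subunit and most abundant of the list, was at 194 ± 7.28 against 206 ± 28.7 CPM. For shedding, 1 of 5 tested was called, beside 1.44% of all genes tested. *Timp3*, an inhibitor of the metalloproteinases that cleave Axl and Mertk from the cell surface, had 3210, 3506 and 3292 counts in *Txnip-/-* libraries and 5275, 5279 and 5143 counts in WT libraries. It fell to 356 ± 3.48 from 520 ± 21.3 CPM (log2 fold change -0.55 ± 0.08 SE, edgeR adjusted p 0.00068). The sheddases themselves, *Adam10* at 101 ± 8.29 against 101 ± 9.44 CPM and *Adam17* at 100.1 ± 1.52 against 114 ± 12.0 CPM, were not called and were named for their role. The 3′ ends of *Timp3* and *Adam17* overlap exons of *Syn3* and *Iah1* on the opposite strand.

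Downstream of the receptors, 1 of 19 tested signalling and engulfment genes was called (5.26%) and 2 (10.5%) had an unadjusted p under 0.05. The shares over all genes tested were 1.44% called and 11.5% at an unadjusted p under 0.05 in edgeR. *Vav1*, a Rac activator of blood cells, had 4, 4 and 4 counts in *Txnip-/-* libraries and 49, 47 and 63 counts in WT libraries (log2 fold change -3.59 ± 0.60 SE, edgeR adjusted p 0.0032). *Elmo1*, an engulfment adaptor, was at 0.48 ± 0.45 against 2.30 ± 0.59 CPM (edgeR adjusted p 0.33). *Rac1*, the small GTPase of engulfment and the most abundant of the list, was at 692 ± 14.9 against 719 ± 24.9 CPM.

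Interferon feedback, the liver X receptor and YAP are known to regulate TAM receptors or to be regulated by them. Of all genes tested, 1.44% were called and 11.5% had an unadjusted p under 0.05 in edgeR. In the interferon feedback list, 0 of 7 tested genes were called by edgeR or DESeq2 and 0 had an unadjusted p under 0.05, with *Jak1*, the most abundant, at 704 ± 21.7 against 739 ± 81.3 CPM. In the list of the liver X receptor (LXR), a sterol sensor that raises *Mertk* in macrophages, 1 of 10 tested was called, and 3 (30%) had an unadjusted p under 0.05, all of them lower. *Mylip*, an LXR target that degrades the LDL receptor, was at 49.5 ± 6.85 against 83.3 ± 4.73 CPM (log2 fold change -0.75 ± 0.12 SE, edgeR adjusted p 0.0030). *Nr1h3*, which encodes LXR alpha, and *Abca1*, a cholesterol exporter, had edgeR adjusted p of 0.28 and 0.42. *Lpcat3*, the most abundant, was at 109 ± 4.03 against 101 ± 13.7 CPM. The part of the lower Kupffer cell markers in the LXR list was not tested. In the list of YAP and TEAD, transcriptional regulators of which *Axl* is a known target, 1 of 11 tested was called and it was lower, and 2 (18.2%) had an unadjusted p under 0.05, 1 in each direction. *Ccn2*, the most abundant of the list and named *Ctgf* in the files, was at 3784 ± 223 against 5133 ± 427 CPM (log2 fold change -0.44 ± 0.07 SE, edgeR adjusted p 0.0021), and without WT replicate 2 its fold was under 1.3. *Ankrd1*, another YAP target, was at 253 ± 28.1 against 197 ± 42.4 CPM and was not called (edgeR adjusted p 0.26). Its level in WT replicate 3 was 149 CPM.

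Among 21 other receptor tyrosine kinases tested, 1 was called (4.76%) and 6 (28.6%) had an unadjusted p under 0.05, 3 in each direction. The shares over all genes tested were 1.44% called and 11.5% at an unadjusted p under 0.05 in edgeR. *Csf1r*, the macrophage colony-stimulating factor receptor, had 114, 112 and 171 counts in *Txnip-/-* libraries and 384, 407 and 365 counts in WT libraries (log2 fold change -1.44 ± 0.19 SE, edgeR adjusted p 0.00026). Its 3′ end overlaps an exon of *Hmgxb3* on the opposite strand, which was at 24.8 ± 2.43 against 23.7 ± 1.81 CPM. *Tie1*, an endothelial receptor, was at 82.2 ± 3.67 against 108 ± 12.9 CPM (edgeR adjusted p 0.095), and *Igf1r* at 231 ± 18.9 against 288 ± 31.0 CPM (edgeR adjusted p 0.15). *Kdr*, the VEGF receptor and the most abundant of the list, was at 348 ± 35.1 against 377 ± 35.9 CPM. The 3 that were higher at an unadjusted p under 0.05 were *Fgfr1* (28.8 ± 5.82 against 17.8 ± 5.55 CPM), *Egfr* (4.13 ± 0.73 against 1.32 ± 0.94 CPM) and *Ddr2* (11.3 ± 4.26 against 6.53 ± 0.62 CPM), named after their values were seen, with edgeR adjusted p of 0.19, 0.30 and 0.31. *Fgfr1*, which the study also displayed from these samples, was called without the filter on low counts.

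The TAM genes lie apart in the mouse genome (GRCm38). *Axl* spans chr7:25757273-25788705 on the minus strand, with 20 exons in its principal transcript. *Mertk* spans chr2:128698956-128802894 on the plus strand with 19 exons, and *Tyro3* spans chr2:119797733-119818104 on the plus strand, also with 19 exons. *Gas6* spans chr8:13465374-13494490 on the minus strand with 15 exons, and *Pros1* spans chr16:62854307-62929346 on the plus strand, also with 15 exons. The final 500 bases of each principal transcript, which QuantSeq reads come from, overlapped no exon of another annotated gene on either strand. Among the other list genes named, the 3′ ends of *Rac1*, *Jak1*, *Lpcat3* and *Ddr2* overlap exons of *Daglb*, *Raver2*, *Emg1* and *3110045C21Rik* on the opposite strand, and that of *Vkorc1* overlaps *Gm21974* on the same strand.

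The promoter of *Axl* is shown because *Axl* was the TAM gene that differed most between genotypes. It covers 250 bases before and 50 bases after the gene's start in RefSeq (GRCm38.p6, chr7:25788684-25788983, minus strand), and a promoter entry was found for all 5 TAM genes. Capitals mark matches to GGGCGG, the GC box bound by Sp1, and to GGAATG, the core letters bound by TEAD.
Axl: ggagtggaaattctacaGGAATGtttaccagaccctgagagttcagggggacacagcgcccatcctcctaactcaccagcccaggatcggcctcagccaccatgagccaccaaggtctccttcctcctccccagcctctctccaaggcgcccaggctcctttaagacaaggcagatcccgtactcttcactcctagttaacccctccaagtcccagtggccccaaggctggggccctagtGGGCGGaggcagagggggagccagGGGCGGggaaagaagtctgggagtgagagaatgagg
On either strand, *Axl* held 2 GC boxes and 1 TEAD core, which do not overlap each other. By the same count *Mertk* held 4 GC boxes, *Tyro3* 6, *Gas6* 4 and *Pros1* 5, with overlapping matches counted separately, and none of these 4 promoters held the TEAD core. GGGCGG was found in 35.7% and GGAATG in 14.7% of all 32851 promoters of this length. The AP-1 letters TGANTCA, found in 7.81% of promoters, matched none of the TAM promoters in this window. A match describes letters and shows no binding.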

How the data were processed

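LSEC libraries, 3 of each genotype, were grouped by the labels. The deposited values are counts per gene. The authors aligned single-end QuantSeq reads with Bowtie2 (genome build mm10 in the submitters' processing notes), counted unique and multiple alignments with Bedtools and deposited whole counts without normalization. Versions, annotation and use of strand are not given in the sources used here. Each file held 23282 rows, 44 of which repeat a symbol. Counting multiple alignments can give reads to each copy of near-identical genes.

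Counts were filtered with filterByExpr, scaled by TMM and fitted with edgeR 4.0.16 (quasi-likelihood test, genotype only) in R 4.3.3, with Benjamini-Hochberg adjustment over 11583 genes. The study's criterion of a log fold change above 1.3 was read as a fold change of 1.3, and the log2 reading was run as an alternative, as was DESeq2 1.42.0. The fit was tested on simulated data. There it called 67 of 98 genes changed 2-fold, 84 of 92 changed 4-fold and 7 of 11148 unchanged genes. Simulated counts were drawn separately for each gene, without a shift shared across genes such as that of WT replicate 3. These rates therefore do not cover such a shift. Log2 CPM used a prior count of 2. The TAM genes and the lists were chosen with earlier results of these data known. Named genes were the TAM genes, *Txnip*, pathway and marker genes called, up to 3 per pathway list with the smallest unadjusted p under 0.05, the most abundant of each list, markers at 0 in all libraries (1 is not reported here) and the 3 genes most like each TAM gene. *Ggcx*, *Mfge8*, *Adam10*, *Adam17*, *Mcam*, *Lrat* and *Timd4* were added for their roles. *Ecm1*, *Hand2* and *Des* were named after their values were seen. Positions came from GENCODE M21 and promoters from RefSeq. Depth was 9147764 to 10193952 counts per library.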

Additional observations from a re-analysis of the deposited data

How the results depend on the processing

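With a threshold of 1.3 on the log2 scale, 0 TAM genes, 4 list genes and 57 genes in all were called. Under the other alternatives run, *Axl* was the TAM gene past the call rule, which is a description, since the TAM genes were chosen on this contrast. The order of the TAM genes held for all 10 pairs with a prior count of 0.5. Leaving out a library could not change it, since the order was the same in 6 of 6 libraries. Over 14 alternative fits, the log2 fold change ran from -0.02 to 1.10 for *Tyro3*, above 0 in 13, and from -0.14 to 0.09 for *Gas6*, above 0 in 9. The genes called numbered 301 without a filter on low counts and 89 to 301 with each library left out, the highest without WT replicate 3. Replicate numbers did not pair the libraries (correlations of deviations -0.03, 0.02 and -0.05), and with the replicate block 108 genes were called, 106 of them among the 167, with *Stab1* lost (adjusted p 0.051 in edgeR). Against WT replicate 3 alone, an alternative added after seeing the data in which that library is assumed to vary like the *Txnip-/-* libraries, 107 genes were called, 75 of them among the 167, and the log2 fold changes were 1.27 for *Axl*, 0.034 for *Mertk*, 1.10 for *Tyro3* and -0.14 for *Gas6*. The list genes *Cd300lf*, *Ccn2* and *Vav1* were not called there, and *Ankrd1* was. Without WT replicate 3, *Cd36*, *Igf1r*, *Itgav* and *Tie1* were called as well, and without the filter *Cd36*, *Fgfr1* and *Tie1*. With total counts in place of TMM scaling, *Cd36* and *Stab2* were called as well. Leaving out *Rn45s*, also added later, called 167 genes. The causes of these shifts were not tested. *Tyro3* had 18 to 48 counts per library, the fewest of the TAM genes.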
